A study of Mus musculus with 6 samples.

Results

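The genes described here build and run the mitotic spindle, hold chromosomes to it and divide the cell at the end of mitosis. They are 44 named mouse genes, chosen by name, with no measured value in the rule, and they fall into 7 roles: kinetochore, spindle checkpoint, mitotic kinases and passenger complex, motors, spindle assembly and cytokinesis, condensin and chromosome structure, and the cyclins, Cdk1 and the arm of the anaphase-promoting complex (APC/C) that acts on them. All 44 names were matched exactly in GENCODE vM39 to Ensembl IDs among the 47643 gene IDs of the count files. All 44 were among the 15792 genes tested. Their RNA was counted in mSGOs, organoids of the mouse submandibular salivary gland, which grow as multicellular spheres from single cells of the adult gland. The glands came from C57BL/6 mice aged 8 to 12 weeks, all female per the methods of the study, and the labels name no other allele in either group. Every culture was non-irradiated and untreated and was kept in Matrigel in WRY medium, which holds EGF, FGF2, N2, insulin, dexamethasone, Y27632 and conditioned media with R-spondin1 and Wnt3a. Before plating in gel, the digested glands had spent 3 days in a minimal medium as floating spheres, so both groups are passaged cells in culture and not fresh tissue. The only difference between the groups that the labels name is the time in gel, 5 or 7 days. Each of 3 mice gave 1 library at each day. A technical difference that follows the day cannot be told apart from it.

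In mitosis the kinetochore, a protein plate on each centromere, binds the ends of spindle microtubules. The spindle checkpoint holds the APC/C inactive until every kinetochore is attached. Cdk1 with its cyclins starts mitosis, condensin and topoisomerase II compact the chromosomes, and kinesin motors shape the spindle. The Aurora and Polo kinases correct attachments and time each step, and the central spindle then places the ring that divides the cell. RNAs of these proteins are known to peak late in the cell cycle and to be low in cells that do not divide, so in epithelium they are commonly read as marks of cycling cells.

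The 6 libraries held 1918198 to 2837397 reads in genes. A count of 0 allows up to 1.06 to 1.56 CPM (counts per 1000000 reads in genes) on these totals without scaling. All other CPM values are on TMM-scaled library sizes. QuantSeq reads come from the 3′ end of a transcript, so a value is not divided by gene length and levels are compared here between days and not between genes. Libraries of the same day differed by more than counting noise, with a chi-square per degree of freedom of 1.99 to 3.24 between day 5 libraries and 12.3 to 19.9 between day 7 libraries. Reads that named no gene were 13.7% to 14.4% of all reads at day 5 and 9.12% to 9.74% at day 7. Epithelial markers summed to 13520 to 17383 CPM at day 5 and 10380 to 14976 CPM at day 7. Fibroblast markers summed to 0.360 to 0.502 CPM and then 1.04 to 1.96 CPM with 3 of 6 genes at 0 in every library, and leukocyte and macrophage markers to 0.360 to 1.65 CPM and then 3.45 to 6.85 CPM with 3 of 5 at 0 and *Ptprc*, the defining leukocyte gene, at 1 count in 1 library. The rest of that sum was *Cd68*, a lysosomal protein abundant in macrophages, which rose (1.00 ± 0.645 CPM at day 5 and 5.27 ± 1.97 CPM at day 7, log2 fold change 2.36 ± 0.61, adjusted p = 0.0151 in edgeR), and of the epithelial markers the keratin *Krt8* fell (-0.65 ± 0.20, edgeR adjusted p = 0.0374). Endothelial markers stayed at or under 1.00 CPM with 1 of 4 at 0, and both erythroid genes were at 0. The part of the unassigned reads and of these other cell types in the results below was not tested.

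Of the 44 mitotic genes, 39 fell from day 5 to day 7 and none rose past the threshold (edgeR quasi-likelihood F test, adjusted p under 0.05 and absolute log2 fold change over 0.6). Among all genes tested, 4.82% were called lower and 7.22% were called higher in the same fit. The median log2 fold change of the 44 was -1.03, with a range from -1.64 for *Cdca2* to -0.44 for *Spc25*, against a median of -0.0073 over all genes tested. At an unadjusted p under 0.05, 42 of the 44 were lower, beside 11.4% of all genes tested. In 41 of them every day 7 library lay below every day 5 library, an ordering that 15.5% of all genes tested showed. The exceptions were *Spc25*, *Bub1b* and *Ttk*. When the fold change was tested against the limit itself (glmTreat in edgeR), 12 members passed beside 1.05% of all genes in that direction: *Cenpe*, *Cdca2*, *Kif11*, *Kif20a*, *Kif20b*, *Kif23*, *Kif15*, *Smc2*, *Ncapg*, *Mki67*, *Cdc20* and *Ube2c*. Without mouse 1, 2 or 3 at day 5 the count of 39 became 26, 19 and 25, and without mouse 2 at day 7 it became 25, in fits where 2.13%, 1.85%, 2.02% and 2.4% of all genes were called lower. In the fits without mouse 1 or 3 at day 7 it was 37 and 42, beside 6.77% and 7.32% of all genes. In all 6 of these fits 19 members were called, and the share of all genes called in all 6 was not computed. With the mouse as a block the count of 39 became 40, beside 6.45% of all genes.

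Together the 44 genes summed to 6566, 6739 and 5917 CPM in mice 1, 2 and 3 at day 5 and to 3358, 2546 and 3099 CPM at day 7. The days did not overlap, and the day 7 mean was 46.8% of the day 5 mean (6407 ± 433 and 3001 ± 415 CPM, SD, n = 3). As a share of all reads in genes, they took 0.619% to 0.70% at day 5 and 0.258% to 0.316% at day 7. These are bulk samples, in which fewer dividing cells and less RNA per cell cannot be told apart.

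**Figure D1:**
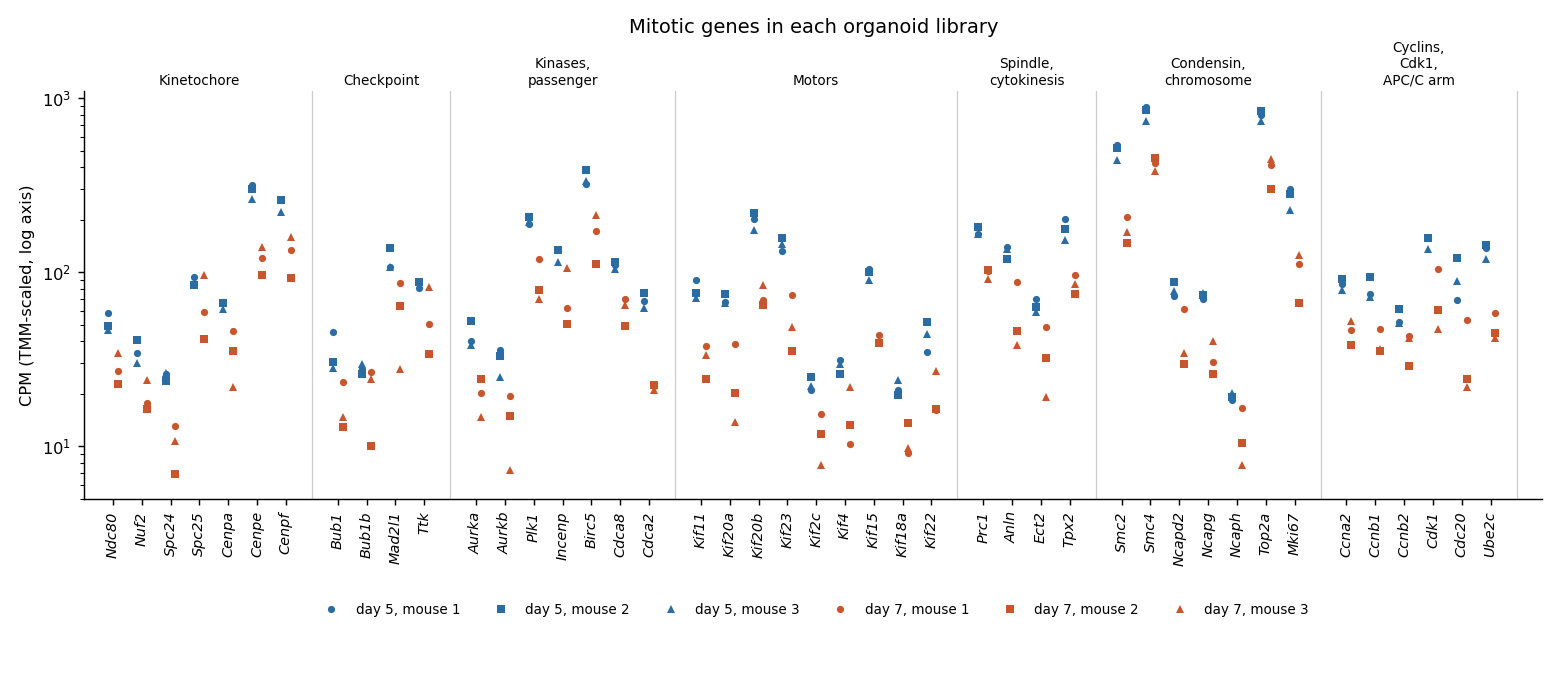
Expression of the 44 mitotic genes in each of the 6 libraries, in TMM-scaled CPM on a log axis, with genes ordered by role, day 5 in blue and day 7 in orange, and a marker shape for each mouse. In 41 genes all 3 orange points lie under all 3 blue points, and the orange points of *Mad2l1*, *Kif20a* and *Bub1b* are the most spread.

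**Figure D2:**
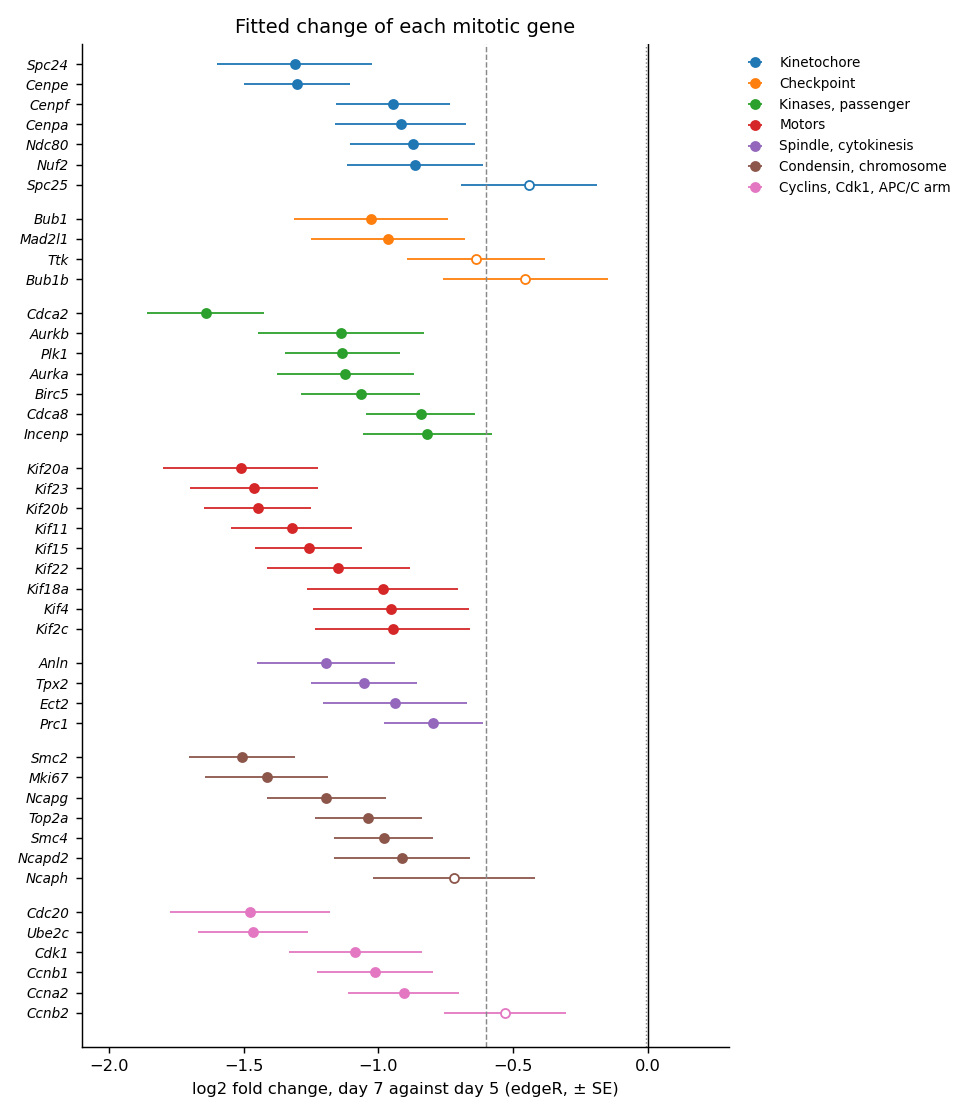
Fitted log2 fold change of each gene at day 7 against day 5 (edgeR) with its standard error, grouped by role, with filled points for the 39 genes past the threshold and open points for the other 5. The dashed line is the log2 fold change limit of 0.6 on the lower side and the dotted line is the median of all genes tested, and every point lies left of that median.

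The promoters of these genes were read for letters known from late cell cycle genes. TTTGAA is the cell cycle genes homology region (CHR), which the DREAM and MYB-MuvB complexes are known to bind, and CCAAT is known as the letters bound by NF-Y. RefSeq windows (GRCm38.p6, 250 bases before to 50 bases after the start) matched 36 of the 44 genes, with 38 windows, and the genes without a window were *Aurkb*, *Ccna2*, *Cdca2*, *Incenp*, *Kif20a*, *Smc4*, *Spc24* and *Tpx2*. Each search covered both strands, and matches to different letters were counted separately even where they shared bases. TTTGAA was in 78.9% of the windows of these genes and in 17.9% of the 32851 windows of the table. CCAAT was in 73.7% and 37.4%, and both were in 65.8% and 6.95%. The variant TTTAAA was in 23.7% and 13.2%. The letters GCGGGAA, which resemble an E2F site, were in 2.63% and 4.60%. A pair of CCAAT on the same strand with 31 to 33 bases between their first letters, looked for after the windows had been seen, was in 6 windows, or 15.8%, against 0.794% of the table. In windows of the other mitotic genes described further on, TTTGAA was in 33.3%, CCAAT in 56.4% and both in 23.1%. There TTTAAA was in 12.8%, GCGGGAA in 19.7% and the CCAAT pair in 3.42%. Over all matches in the 38 windows, TTTGAA lay at a median position of -15 relative to the start and CCAAT at -71. *Ect2* and *Prc1* have overlapping windows, so their matches were counted again, and positions over the whole table were not computed.

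The 150 bases before the start are shown for 7 of these genes, which differ in these letters. Capitals mark TTTGAA and CCAAT on the strand of the gene, or TTCAAA and ATTGG where the match is on the other strand. *Cdc20* and *Ube2c* (the APC/C arm), *Cdk1* and *Top2a* hold both, *Ccnb1* and *Ccnb2* show CCAAT repeats with no TTTGAA in the stretch printed, and *Mad2l1* has neither in its whole window. In *Ccnb2*, TTTGAA lies outside the stretch printed, once just after the start and once further upstream. In *Ccnb1* the variant TTTAAA lies in the stretch printed and is left in lower case. The coordinates on GRCm38.p6 are chr4:118437344-118437493 (minus strand) for *Cdc20*, chr10:69352913-69353062 (minus) for *Cdk1*, chr2:164769779-164769928 (plus) for *Ube2c*, chr11:99024190-99024339 (minus) for *Top2a*, chr13:100786487-100786636 (minus) for *Ccnb1*, chr9:70421555-70421704 (minus) for *Ccnb2* and chr6:66535071-66535220 (plus) for *Mad2l1*.
Cdc20: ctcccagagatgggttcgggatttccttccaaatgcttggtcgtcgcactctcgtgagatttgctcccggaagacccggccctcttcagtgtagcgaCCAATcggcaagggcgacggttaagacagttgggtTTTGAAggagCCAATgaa
Cdk1: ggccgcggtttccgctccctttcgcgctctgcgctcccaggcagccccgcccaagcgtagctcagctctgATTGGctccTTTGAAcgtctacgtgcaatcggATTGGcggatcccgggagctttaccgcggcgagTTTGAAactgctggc
Ube2c: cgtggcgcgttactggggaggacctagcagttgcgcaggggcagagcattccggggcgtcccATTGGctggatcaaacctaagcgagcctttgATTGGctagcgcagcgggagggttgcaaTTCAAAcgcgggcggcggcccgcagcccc
Top2a: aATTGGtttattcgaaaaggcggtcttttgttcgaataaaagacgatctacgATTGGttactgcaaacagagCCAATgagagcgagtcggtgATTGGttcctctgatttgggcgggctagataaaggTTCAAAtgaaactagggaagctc
Ccnb1: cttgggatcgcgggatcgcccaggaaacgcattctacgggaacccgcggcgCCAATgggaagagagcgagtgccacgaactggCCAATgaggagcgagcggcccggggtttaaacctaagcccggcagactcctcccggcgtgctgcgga
Ccnb2: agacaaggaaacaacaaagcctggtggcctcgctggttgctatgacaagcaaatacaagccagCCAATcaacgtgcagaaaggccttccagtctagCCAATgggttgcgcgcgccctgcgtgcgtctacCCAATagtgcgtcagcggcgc
Mad2l1: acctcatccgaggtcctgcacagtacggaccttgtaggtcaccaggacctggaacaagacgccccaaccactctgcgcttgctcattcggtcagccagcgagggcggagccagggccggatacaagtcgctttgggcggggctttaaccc

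Most members fell, with or without TTTGAA in the window. Of the 28 members with TTTGAA, 24 fell, with a median log2 fold change of -1.06, and of the 8 with a window that lacked it 7 fell, with a median of -1.0. Of these 8, *Birc5*, *Ccnb1* and *Cenpe* hold the variant TTTAAA, so the 8 are not all without a CHR-like stretch. *Mad2l1*, *Nuf2*, *Kif18a*, *Birc5* and *Ncaph* hold neither TTTGAA nor CCAAT in their windows, and 4 of these 5, all but *Ncaph*, fell. Among the other mitotic genes described further on, 19 of 35 with TTTGAA were called lower (54.3%, median -0.96) and 20 of 65 without it (30.8%, median -0.41). Among tested genes in neither list, the shares called lower were 5.39% and 4.75%. These are counts over genes and were not tested.

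At the kinetochore, 6 of 7 genes fell and *Spc25* did not pass the threshold. Their summed level went from 805 ± 60.3 to 405 ± 88.2 CPM (SD, n = 3), 50.3% of day 5. *Cenpe* (ENSMUSG00000045328, chromosome 3, 134918298 to 134979372 on GRCm39), the kinesin that carries chromosomes along microtubules towards the spindle equator, measured 316, 299 and 264 CPM in mice 1, 2 and 3 at day 5 and 120.1, 96.9 and 140.0 CPM at day 7. All day 7 values lay well below the lowest day 5 value, and the log2 fold change was -1.30 ± 0.20 (SE, edgeR adjusted p = 0.000264). *Spc24* and *Spc25* encode the pair of subunits that ties the Ndc80 complex to the inner kinetochore. *Spc24* (ENSMUSG00000074476, chromosome 9, 21666727 to 21671791) measured 26.0, 23.6 and 26.3 CPM and then 13, 6.94 and 10.8 CPM. All day 7 values were below all day 5 values, with a log2 fold change of -1.31 ± 0.29 (adjusted p = 0.00549 in edgeR). *Spc25* (ENSMUSG00000005233, chromosome 2, 69009753 to 69036574) measured 94.0, 84.9 and 86.5 CPM and then 58.7, 41.3 and 96.9 CPM. The day 7 library of mouse 3 was above all 3 day 5 libraries, so the days overlapped (log2 fold change -0.44 ± 0.25, edgeR adjusted p = 0.284).

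The other Ndc80 subunits fell, *Ndc80* with a log2 fold change of -0.87 (adjusted p = 0.0178 in edgeR) and *Nuf2* with -0.86 (0.0315). *Cenpa*, the histone H3 variant that marks centromeres, had -0.92 (0.0184) and *Cenpf*, a large protein of the outer kinetochore, -0.95 (0.00591). In all 4 the days did not overlap. *Ndc80*, *Nuf2* and *Cenpa* missed the threshold without any 1 of the day 5 libraries or without mouse 2 at day 7 (log2 fold changes -0.96 to -0.74, edgeR adjusted p 0.0655 to 0.18), and *Cenpf* without mouse 2 at day 5 (-0.91, 0.0574). *Spc25* passed without mouse 3 at day 7 (-0.83, edgeR adjusted p = 0.00407).

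Of the 4 checkpoint genes, *Bub1* and *Mad2l1* fell, and *Bub1b* and *Ttk* did not pass the threshold. Their summed level went from 265 ± 14.7 to 152 ± 33.2 CPM, 57.5% of day 5. *Bub1* (ENSMUSG00000027379, chromosome 2, 127643036 to 127673806), a kinase that recruits checkpoint proteins to kinetochores, measured 45.4, 30.6 and 28.1 CPM at day 5 and 23.4, 12.8 and 14.7 CPM at day 7. The highest value of each day was in mouse 1, and the days did not overlap (log2 fold change -1.03 ± 0.29, edgeR adjusted p = 0.0240). *Mad2l1* (ENSMUSG00000029910, chromosome 6, 66512208 to 66524204) encodes Mad2, which binds Cdc20 and so blocks the APC/C. It measured 106, 138 and 108 CPM and then 86.7, 64.2 and 27.9 CPM. The day 7 values were all lower but spread 3.11-fold, the widest day 7 spread of the 44 genes, with mouse 3 the lowest (log2 fold change -0.96 ± 0.29, edgeR adjusted p = 0.0338).

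*Bub1b* (ENSMUSG00000040084, chromosome 2, 118428684 to 118472076), whose product BubR1 also binds Cdc20, measured 27.6, 26.1 and 29.5 CPM and then 26.8, 10.1 and 24.5 CPM. At day 7 mouse 2 was low, while mice 1 and 3 lay near or within the day 5 values (log2 fold change -0.46 ± 0.31, edgeR adjusted p = 0.366). *Ttk* (ENSMUSG00000038379, chromosome 9, 83703392 to 83755037), the kinase Mps1 that starts the checkpoint, measured 81.3, 87.4 and 87.9 CPM and then 50.2, 34.0 and 81.8 CPM. Mouse 3 at day 7 was above the lowest day 5 value, and *Ttk* was not called (log2 fold change -0.64 ± 0.26, edgeR adjusted p = 0.114). With the mouse as a block *Ttk* passed it (-0.70, edgeR adjusted p = 0.0264). *Ttk* also passed without mouse 3 at day 7 (-1.03, edgeR adjusted p = 0.00117), while *Bub1* and *Mad2l1* missed the threshold without any 1 of the day 5 libraries or without mouse 2 at day 7 (-1.16 to -0.79, 0.0532 to 0.192).

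All 7 genes of the mitotic kinases and the passenger complex fell. Their summed level went from 924 ± 70.0 to 445 ± 80.5 CPM, 48.1% of day 5. *Cdca2* (ENSMUSG00000048922, chromosome 14, 67912860 to 67953433) encodes Repo-Man, which brings a phosphatase to chromatin as cells leave mitosis. It measured 68.1, 76.3 and 62.0 CPM at day 5 and 22.2, 22.6 and 21.1 CPM at day 7. This was the lowest log2 fold change of the 44 genes (-1.64 ± 0.22, edgeR adjusted p = 6.74e-05), and its day 7 values were also the least spread, within 1.07-fold. *Plk1* (ENSMUSG00000030867, chromosome 7, 121758646 to 121769108), the Polo-like kinase, measured 189.7, 208 and 193 CPM and then 119.7, 78.8 and 70.0 CPM. Mouse 1 had the highest day 7 value, well under the lowest of day 5 (log2 fold change -1.13 ± 0.21, edgeR adjusted p = 0.00172).

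The chromosomal passenger complex joins the kinase Aurkb to Incenp, Birc5 and Cdca8, and all 4 genes fell. *Birc5* (ENSMUSG00000017716, chromosome 11, 117740040 to 117746581), which encodes survivin, measured 322, 384 and 334 CPM and then 173, 112 and 212 CPM. The days were apart, with mouse 2 the highest at day 5 and the lowest at day 7 (log2 fold change -1.06 ± 0.22, edgeR adjusted p = 0.00361). *Incenp* (ENSMUSG00000024660, chromosome 19, 9846569 to 9876924), the scaffold, measured 135, 134 and 114 CPM and then 62.1, 50.7 and 105 CPM. Mouse 3 at day 7 stood near its own day 5 value of 114 CPM while mice 1 and 2 were well below theirs (log2 fold change -0.82 ± 0.24, edgeR adjusted p = 0.0315). *Aurkb* had a log2 fold change of -1.14 (adjusted p = 0.0205 in edgeR) and *Cdca8*, which encodes borealin, of -0.84 (0.00930). *Aurka*, the Aurora kinase of the spindle poles, had -1.12 (0.00659). *Incenp* missed the threshold in each fit without 1 library except that without mouse 3 at day 7 (-0.89 to -0.61, edgeR adjusted p 0.0505 to 0.160). *Cdca8* missed it without 1 day 5 library, whichever it was, or without mouse 2 at day 7 (-0.88 to -0.70, 0.0511 to 0.0754), *Aurkb* without mouse 1 or 2 at day 5 or mouse 2 at day 7 (-1.18 to -1.03, 0.0760 to 0.122) and *Aurka* without mouse 2 at day 5 (-0.97, 0.0761).

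The 9 motors all fell, and their summed level went from 707 ± 40.6 to 280 ± 38.1 CPM, 39.5% of day 5, which is the lowest percentage of the 7 roles. *Kif20b* (ENSMUSG00000024795, chromosome 19, 34899752 to 34953149), a kinesin of late mitosis and abscission, measured 201, 218 and 175 CPM at day 5 and 69.0, 64.6 and 84.7 CPM at day 7. The days were far apart (log2 fold change -1.45 ± 0.20, edgeR adjusted p = 9.14e-05). *Kif15* (ENSMUSG00000036768, chromosome 9, 122780111 to 122847806), a motor that can help keep spindle poles apart, measured 104, 100.4 and 90.1 CPM and then 43.7, 39.2 and 40.1 CPM. Its values were tight within both days (log2 fold change -1.26 ± 0.20, edgeR adjusted p = 0.000377). *Kif2c* (ENSMUSG00000028678, chromosome 4, 117016830 to 117039836), which takes microtubule ends apart at centromeres, measured 21.0, 25.1 and 22.3 CPM and then 15.3, 11.8 and 7.83 CPM. The days did not overlap and the fold change was the smallest of the motors (log2 fold change -0.95 ± 0.29, edgeR adjusted p = 0.0382).

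*Kif11*, the main motor that pushes spindle poles apart, fell to a log2 fold change of -1.32 with an edgeR adjusted p of 0.000718. Motors of the central spindle fell as far: *Kif23*, a subunit of centralspindlin, had -1.46 (0.000498) and *Kif20a*, which carries the passenger complex to the midzone, had -1.51 (0.00186). *Kif20a* was 66.3 to 75.3 CPM at day 5 and 13.7 to 38.7 CPM at day 7, a 2.83-fold spread, with mouse 1 the highest. *Kif22* (-1.15), *Kif18a* (-0.98) and *Kif4* (-0.95), motors that act on chromosome arms or on microtubule length, had edgeR adjusted p from 0.00763 to 0.0369. *Kif4* and *Kif18a* rested on 19.6 to 31.3 CPM at day 5. *Kif2c*, *Kif4* and *Kif18a* missed the threshold without any 1 of the day 5 libraries, and also without mouse 2 (*Kif2c*, *Kif4*) or mouse 1 (*Kif4*, *Kif18a*) at day 7 (-1.05 to -0.74, edgeR adjusted p 0.0544 to 0.168). *Kif22* missed it without mouse 2 or 3 at day 5 or mouse 2 at day 7 (-1.13 to -1.01, 0.0522 to 0.0804).

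All 4 genes of spindle assembly and cytokinesis fell, and their summed level went from 544 ± 30.6 to 274 ± 53.1 CPM, 50.4% of day 5. *Tpx2* (ENSMUSG00000027469, chromosome 2, 152689854 to 152737245), which activates Aurka and nucleates spindle microtubules, measured 201, 177 and 153 CPM at day 5 and 95.9, 75.0 and 85.2 CPM at day 7. *Prc1* (ENSMUSG00000038943, chromosome 7, 79944168 to 79966011), which bundles the microtubules of the central spindle, measured 165, 182 and 167 CPM and then 102, 102 and 91.1 CPM. Both had days well apart and little spread within a day, with log2 fold changes of -1.05 ± 0.20 (edgeR adjusted p = 0.00160) and -0.80 ± 0.18 (0.00754). *Anln* (ENSMUSG00000036777, chromosome 9, 22242402 to 22300501), the anillin scaffold of the contractile ring, measured 139, 119 and 136 CPM and then 87.8, 46.2 and 38.2 CPM. *Ect2* (ENSMUSG00000027699, chromosome 3, 27151371 to 27208029), the exchange factor that switches on RhoA at the equator, measured 70.1, 63.3 and 59.4 CPM and then 48.7, 31.9 and 19.1 CPM. At day 7 both were ordered mouse 1, mouse 2, mouse 3 from high to low, with spreads of 2.30-fold and 2.55-fold, and their log2 fold changes were -1.19 ± 0.26 (edgeR adjusted p = 0.00454) and -0.94 ± 0.27 (0.0275). *Ect2* missed the threshold without any 1 of the day 5 libraries or without mouse 2 at day 7 (-0.99 to -0.87, edgeR adjusted p 0.0887 to 0.136), and *Prc1* without mouse 2 or 3 at day 5 (-0.82 to -0.75, 0.0506 to 0.0691).

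Among the genes of condensin and chromosome structure 6 of 7 fell, and *Ncaph* did not pass the threshold. Their summed level went from 2563 ± 205 to 1169 ± 119.9 CPM, 45.6% of day 5. *Smc2* and *Smc4* encode the core pair shared by both condensins. *Smc2* (ENSMUSG00000028312, chromosome 4, 52439214 to 52488264) measured 538, 514 and 443 CPM at day 5 and 208, 147 and 171 CPM at day 7, and *Smc4* (ENSMUSG00000034349, chromosome 3, 68911944 to 68941960) measured 892, 852 and 741 CPM and then 422, 455 and 381 CPM. Neither overlapped between days, and the log2 fold changes were -1.51 ± 0.20 (edgeR adjusted p = 5.73e-05) and -0.98 ± 0.18 (0.00168). *Smc2* had the smallest p of the 44 genes. *Mki67* (ENSMUSG00000031004, chromosome 7, 135291513 to 135318299), the Ki-67 protein that coats mitotic chromosomes, measured 299, 280.2 and 229 CPM and then 112, 66.7 and 125 CPM. Mouse 2 had the lowest day 7 value, and the log2 fold change was -1.41 ± 0.23 (edgeR adjusted p = 0.000459).

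Of the 3 subunits found in condensin I alone, *Ncapg* and *Ncapd2* fell. *Ncapg* had a log2 fold change of -1.19 (adjusted p = 0.00145 in edgeR) and *Ncapd2* of -0.91 (0.0226). *Ncaph* (ENSMUSG00000034906, chromosome 2, 126945729 to 126975874), the kleisin subunit that closes the ring, measured 18.6, 19.1 and 20.2 CPM and then 16.5, 10.4 and 7.83 CPM. Its day 7 values were all lower, but mouse 1 was near its day 5 value (log2 fold change -0.72 ± 0.30, edgeR adjusted p = 0.130). Whether *Ncaph* changed less than *Ncapg* was not tested. *Top2a*, topoisomerase II alpha, had a log2 fold change of -1.04 (adjusted p = 0.00184 in edgeR). *Ncapd2* missed the threshold without any 1 of the day 5 libraries or without mouse 2 at day 7 (-0.97 to -0.71, edgeR adjusted p 0.0715 to 0.137), and *Ncaph* passed it without mouse 1 at day 7 (-1.06, 0.0243).

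Of the cyclins, Cdk1 and the APC/C arm, 5 of 6 fell, and *Ccnb2* did not pass the threshold. Their summed level went from 598 ± 62.8 to 275 ± 67.1 CPM, 46.1% of day 5. *Cdk1* (ENSMUSG00000019942, chromosome 10, 69170976 to 69236595), the kinase that drives entry into mitosis, measured 159, 157 and 137 CPM at day 5 and 105, 60.4 and 47.0 CPM at day 7. All 3 day 7 values were below all day 5 values (log2 fold change -1.09 ± 0.25, edgeR adjusted p = 0.00662). Of its partners, *Ccnb1* had a log2 fold change of -1.01 (0.00430) and *Ccna2* of -0.91 (0.00681). *Ccnb2* (ENSMUSG00000032218, chromosome 9, 70314966 to 70328874) measured 51.6, 61.3 and 50.8 CPM and then 43.0, 28.8 and 41.6 CPM. Its days did not overlap, but mice 1 and 3 stood closer to day 5 than mouse 2 did (log2 fold change -0.53 ± 0.22, edgeR adjusted p = 0.137).

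*Cdc20* (ENSMUSG00000006398, chromosome 4, 118290098 to 118294610) encodes the protein that activates the APC/C, and *Ube2c* (ENSMUSG00000001403, chromosome 2, 164611768 to 164620742) the enzyme that supplies it with ubiquitin. *Cdc20* measured 68.9, 120.0 and 89.4 CPM and then 52.9, 24.3 and 22.0 CPM, and *Ube2c* measured 139, 144 and 119 CPM and then 58.3, 44.8 and 42.1 CPM. Both were highest in mouse 2 at day 5 and in mouse 1 at day 7, with no overlap between days. Their log2 fold changes were -1.48 ± 0.30 (edgeR adjusted p = 0.00278) and -1.46 ± 0.20 (0.000123), and the promoters of both are among those printed with TTTGAA and CCAAT. *Cdk1* missed the threshold without mouse 2 at day 5 or at day 7 (-1.06 to -0.98, edgeR adjusted p 0.0568 to 0.0586). *Ccna2* and *Ccnb1* missed it without mouse 2 at day 5 (-0.85 and -0.89, 0.0654 and 0.0585), and *Ccnb2* passed it without mouse 3 at day 7 (-0.60, 0.0453).

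**Figure D3:**
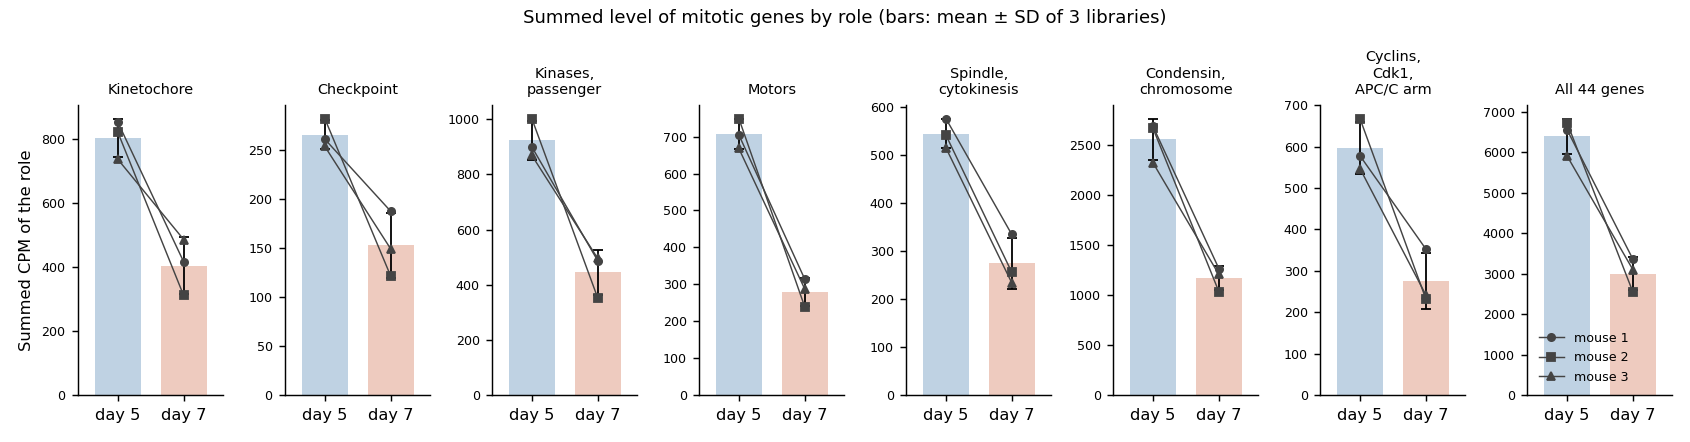
Summed level of the genes of each role and of all 44 genes, in TMM-scaled CPM on axes that start at 0, with bars for the mean of 3 libraries, error bars for the SD, and points joined for the 2 libraries of each mouse. Every line falls, with day 7 at 39.5% of day 5 for the motors and at 57.5% for the checkpoint genes.

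Within each mouse, the day 7 library was compared with the day 5 library of the same animal on the scale of log2(CPM + 1). The day 7 value was lower for 44 genes in mouse 1, 44 in mouse 2 and 43 in mouse 3, and 43 genes were lower in all 3 mice. The shares of all genes lower within each mouse were not computed, and in the fit 50.4% of all genes tested were lower. The exception was *Spc25*, which was 0.16 higher at day 7 in mouse 3. The 3 mice had median differences of -0.90, -1.34 and -1.01. The summed level of the 44 genes at day 7 was 0.511, 0.378 and 0.524 times that of day 5 in mice 1, 2 and 3.

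The members varied little among the day 5 libraries and more among the day 7 libraries. The ratio of the highest to the lowest library had a median of 1.20 at day 5 and of 1.72 at day 7, was larger at day 7 in 40 of 44 genes, and exceeded 2-fold in 0 genes at day 5 and in 16 at day 7. The share of all genes with such ratios was not computed. Across all genes with enough counts to compare, day 7 libraries also differed more (chi-square per degree of freedom 12.3 to 19.9, against 1.99 to 3.24 at day 5). Counts of the members were lower at day 7, and the part of counting noise in these ratios was not tested. At day 7 mouse 1 was the lowest library in 3 genes, mouse 2 in 25 and mouse 3 in 16. By role, mouse 2 was the lowest in 6 of 7 kinetochore genes, 3 of 4 checkpoint genes and 5 of 7 condensin and chromosome structure genes. Mouse 3 was the lowest in 3 of 4 genes of spindle assembly and cytokinesis. The kinases (3 in mouse 2, 4 in mouse 3) and the cyclin role (3 and 3) were split. So were the motors, with 3 in mouse 1, 4 in mouse 2 and 2 in mouse 3. The share of all genes lowest in each day 7 library was not computed. In mouse 3 the difference was -1.91 for *Mad2l1* and -2.19 for *Kif20a* beside -0.10 for *Ttk* and -0.11 for *Incenp*, and in mouse 2 the same 4 genes had -1.09, -1.85, -1.34 and -1.39. With 1 library for each mouse and day, this spread has no replicate of its own and was not tested.

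**Figure D4:**
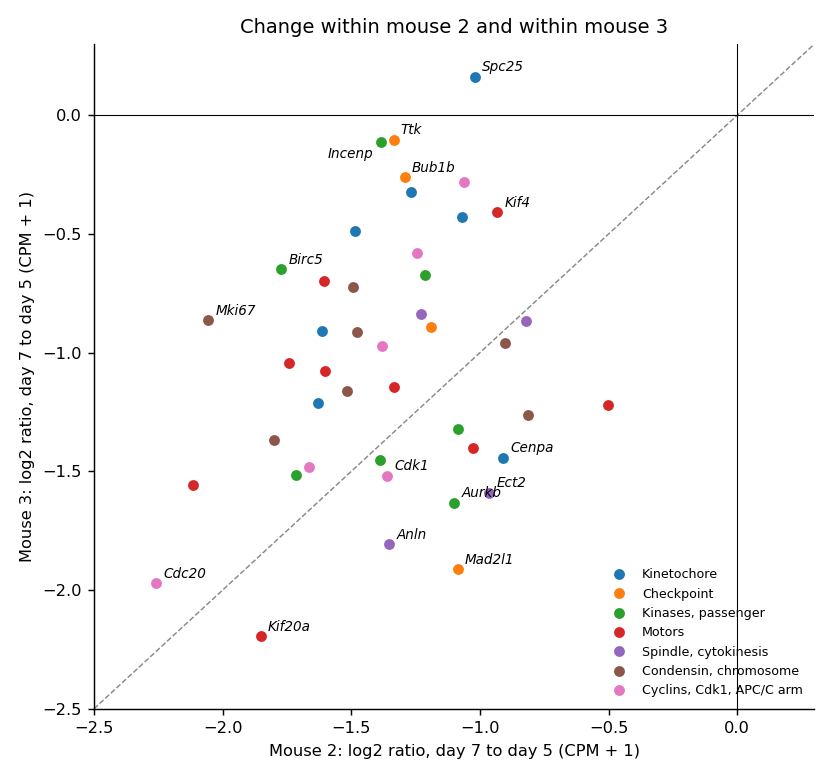
Difference between day 7 and day 5, as log2 of CPM + 1, within mouse 2 (horizontal) and within mouse 3 (vertical) for each of the 44 genes, coloured by role, with the dashed line where both would be equal. All points lie left of 0 in mouse 2 and all but *Spc25* (0.16) below 0 in mouse 3, while *Mad2l1* (-1.09 and -1.91) and *Ttk* (-1.34 and -0.10) lie on opposite sides of the line.

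Other genes of mitosis, listed by role, were set beside the members. Of 117 such genes tested, 45 were called lower (background 4.82%) and 0 higher (7.22%), with a median log2 fold change of -0.68, and at an unadjusted p under 0.05, 63 were lower and 2 higher, beside 11.4% and 14.4% of all genes tested. The count of 45 became 6 with glmTreat, 19, 18 and 18 without mouse 1, 2 or 3 at day 5, and 16 without mouse 2 at day 7. In these fits 1.05%, 2.13%, 1.85%, 2.02% and 2.4% of all genes were called lower. Their summed level went from 6690 ± 125 to 4893 ± 350 CPM, 73.1% of day 5. Within a mouse, 97, 100 and 92 of the 117 were lower at day 7 in mice 1, 2 and 3, and 77 were lower in all 3. The shares within a mouse were not computed over all genes, of which 50.4% were lower in the fit.

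Partners of the kinetochore genes fell in part. At the inner kinetochore and in Cenpa loading, 9 of 19 were called lower (median -0.87), with *Cenpk* (-1.28, edgeR adjusted p = 0.00214) and *Cenph* (-0.90, 0.00876) the smallest p. At the outer kinetochore 6 of 13 were called (median -0.86), led by *Knl1*, the platform on which Bub1 assembles (-1.31, 0.000579), and *Zwilch* (-1.08, 0.00522). Of 4 other checkpoint genes, only *Mad1l1*, which anchors Mad2, was called (-1.11, edgeR adjusted p = 0.0133), and *Trip13*, which disassembles checkpoint complexes, was at -0.56 (0.103). *Bub3*, chosen after its values were seen, measured 133, 140.1 and 124 CPM and then 134, 150.3 and 90.6 CPM. Its days overlapped and its log2 fold change was -0.08 ± 0.21 (edgeR adjusted p = 0.857).

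Most of the spindle and cytokinesis partners fell. Of 17 other spindle genes 11 were called lower (median -0.98), with *Ckap2l* (-1.36, edgeR adjusted p = 0.000165) and *Spag5* (-1.44, 0.00195) the smallest p. Of 4 cytokinesis partners, 3 were called, with *Cit*, the citron kinase of the midbody (-1.38, 0.00111), and *Racgap1*, which forms centralspindlin with Kif23 (-0.98, 0.00387), the smallest p. *Rhoa*, the GTPase that Ect2 switches on and a gene of every cell, chosen after its values were seen, was at 0.23 ± 0.22 (0.549). In augmin, which branches microtubules, 2 of 8 were called, *Haus3* (-0.74, edgeR adjusted p = 0.0419) and *Haus4* (-0.86, 0.0490).

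Cohesin, which holds sister chromatids from S phase on, and condensin II were mixed. Of 11 cohesin and separation genes 5 were called lower (median -0.65), with *Sgo1*, the protector of centromeric cohesin (-1.05, edgeR adjusted p = 0.00344), and *Cdca5*, which encodes sororin (-1.68, 0.00662), the smallest p. The cohesin subunits *Rad21* (0.05 ± 0.18, edgeR adjusted p = 0.902) and *Stag2* (0.53 ± 0.19, 0.0768), chosen after their values were seen, were not called. In condensin II, *Ncapd3* was called (-1.08, edgeR adjusted p = 0.0169), *Ncapg2* was not (-0.79, 0.0582), and *Ncaph2*, the kleisin that stands in it where Ncaph stands in condensin I and chosen after its values were seen, was at 0.20 ± 0.22 (0.609).

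Most subunits of the APC/C were not called. Beside *Cdc20* and *Ube2c*, which fell (-1.48 and -1.46), 1 of 17 subunits and partners was called, *Fbxo5*, the inhibitor Emi1 (-0.88, edgeR adjusted p = 0.0241). The median of the 17 was 0.01 with a range from -0.88 to 0.24, the subunit *Cdc27* had -0.36 (0.265), and their summed level was 666 ± 25.4 and 631 ± 126 CPM, 94.8% of day 5. The difference between these genes and the APC/C arm was not tested. Of 11 entry regulators 4 were called lower (median -0.71), with *Nek2*, a kinase of centrosome separation (-1.35, edgeR adjusted p = 0.00769), and *Ccnf* (-1.0, 0.0219) the smallest p. Among 10 genes of the transcription of mitotic genes, 2 were called, *Rbl1* (-1.06, edgeR adjusted p = 0.00832) and *E2f4* (-0.89, 0.0372), both parts of DREAM. *Foxm1*, an activator of mitotic genes, had -0.63 ± 0.28 (edgeR adjusted p = 0.155) and *Mybl2*, the B-Myb of MYB-MuvB, -1.52 ± 0.51 (0.0582) at 1.39 to 12.6 CPM, both chosen after their values were seen. *Lin52*, a subunit of the MuvB core of DREAM also chosen after its values were seen, measured 2.89, 3.01 and 4.32 CPM and then 5.75, 8.33 and 6.85 CPM. Its day 7 values were all higher, the highest log2 fold change of the 117 genes (1.01 ± 0.41), but it was not called (edgeR adjusted p = 0.115).

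Some of these calls changed when 1 library was left out. *Mad1l1*, *Ncapd3*, *Fbxo5* and *E2f4* missed the threshold without any 1 of the day 5 libraries or without mouse 2 at day 7 (log2 fold changes -1.15 to -0.74, edgeR adjusted p 0.0572 to 0.147), and *Haus3* and *Haus4* also without mouse 1 at day 7 (-0.90 to -0.60, 0.0683 to 0.200). *Ccnf* missed it without mouse 2 or 3 at day 5 or mouse 2 at day 7 (-1.01 to -0.87, 0.0737 to 0.144), and *Nek2* and *Rbl1* without mouse 1 at day 5 or mouse 2 at day 7 (-1.25 to -0.92, 0.0513 to 0.0714). *Cenph* missed it without mouse 1 or 3 at day 5 (-0.91 to -0.84, 0.0519 to 0.0814) and *Cdca5* without mouse 2 at day 7 (-1.39, 0.0544). *Trip13* (-0.73, edgeR adjusted p = 0.00857) and *Ncapg2* (-1.05, 0.00483) passed it without mouse 3 at day 7.

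**Figure D5:**
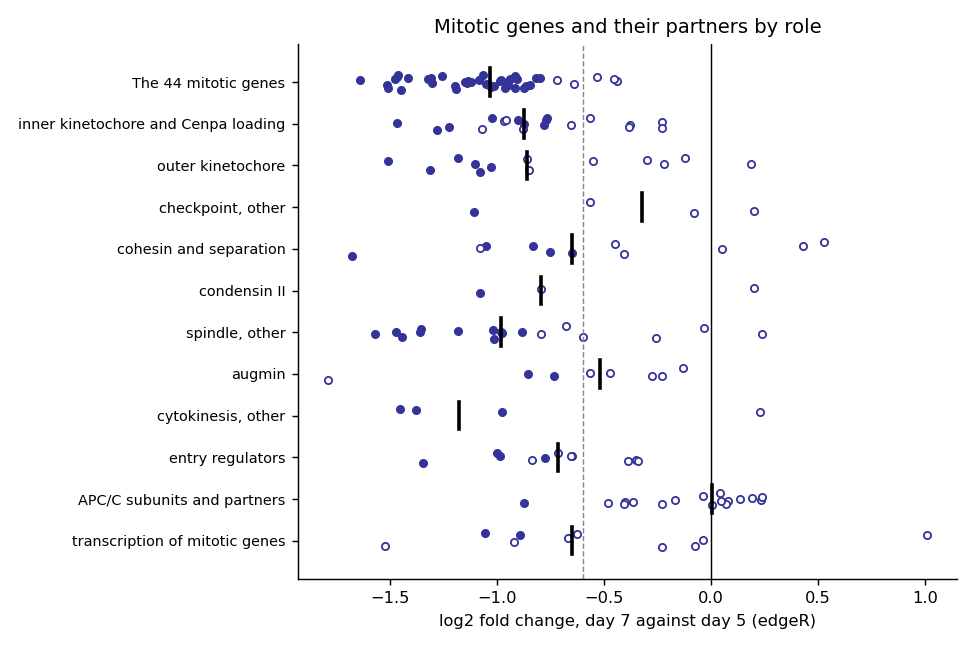
Fitted log2 fold change at day 7 against day 5 (edgeR) of the 44 mitotic genes and of 117 other mitotic genes by role, with filled points for genes past the threshold, black ticks for the median of each row and a dashed line at the limit of 0.6 on the lower side. The medians run from -1.18 for the 4 cytokinesis partners to 0.01 for the 17 genes of the APC/C, beside -1.03 for the 44 genes.

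Reads of many members could have come from elsewhere, which the deposited counts do not settle. In the last 500 bases of the transcript, 9 members (*Cenpf*, *Kif11*, *Mki67*, *Ndc80*, *Nuf2*, *Spc24*, *Tpx2*, *Ttk* and *Ube2c*) matched another transcript on the same strand over at least 50 bases at 95% identity or more. For *Mki67* the longest match was 190 bases of the pseudogene *Gm44521*, which had 0 counts in all 6 libraries. In 5 members the last 500 bases lay wholly opposite another transcript, *Aurka* opposite *Fam210b*, *Kif20a* opposite *Cdc23*, *Ncapg* opposite *Lcorl*, *Prc1* opposite *Rccd1* and *Spc25* opposite *Nostrin*. Over all exons, 25 members, these 5 among them, overlapped a gene on the opposite strand. Further examples are *Kif4* with *Pdzd11* (703 bases) and *Ccna2* with *Exosc9* (510 bases). Whether the counting used strand is not given in the sources used here. The values of all these genes are less certain than those of the rest.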

How the data were processed

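RNA was measured in 6 libraries of mSGOs, 1 from each of 3 mice at day 5 and at day 7, with the Lexogen QuantSeq 3′ kit from 100 ng of RNA (integrity number over 9 per the labels). The authors deposited 1 file per library with whole-number read counts per Ensembl gene ID, not normalised, from reads aligned to GRCm39. The submitters' processing notes name edgeR. The aligner, counter, annotation release and strand setting are not given in the sources used here. The closing entries that name no gene entered neither library sizes nor tests. Names and coordinates are from GENCODE vM39, which held 43465 of 47643 IDs (91.2%).

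A gene entered the fit if 2 or more libraries had 1 or more counts of it, which kept 15792 of the 18687 genes counted at all. The fit had day as its term, TMM scaling and the quasi-likelihood F test (edgeR 4.0.16 in R 4.3.3, robust = FALSE, two-sided). P-values were adjusted by Benjamini-Hochberg across all genes in the fit, and the limits (adjusted p 0.05, absolute log2 fold change 0.6) are those the study states. SE is the absolute log2 fold change divided by the square root of F. The scripts were tested on simulated counts. The alternatives were other scalings, filters and tests (DESeq2 1.42.0), thinned counts, each library left out and the mouse as a block. The labels give the mouse of each library, and the correlation of deviations from the day means within mice 1, 2 and 3 over 8172 genes was 0.14, -0.10 and 0.16. The 3′ ends were compared with transcripts by BLAST 2.17.0.

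The 44 genes, the 118 other mitotic genes (117 matched and tested) and the marker lists were chosen with earlier results of these data known. Values in every library are given for the 2 smallest p, the highest level and the p closest to 1 of each role and for each member not called. Of the other mitotic genes the 2 smallest p of each role are named. Limits given for a count of 0 (3 counts) cover counting error only.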

Additional observations from a re-analysis of the deposited data

How the results depend on the processing

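All 44 mitotic genes were fitted lower at day 7 under each of the 16 alternatives, no result reversed, and 12 of the 39 calls held in every one of them. In the main fit 50.4% of all genes tested were lower. The shares of all genes that were lower, or called lower, in every alternative were not computed. The count of members called lower was 12 with glmTreat and 19 to 42 with 1 library left out. Of all genes, 1.05% were called lower with glmTreat and 1.85% to 7.32% with 1 library left out. In the same fits, the count of other mitotic genes called lower was 6 with glmTreat and 16 to 54 with 1 library left out. The count called higher was 0 to 1, *Stag2* (0.60, edgeR adjusted p = 0.0340) without mouse 1 at day 7, beside 9.34% of all genes called higher. With 1 library left out, a day keeps only 2 libraries. The median log2 fold change of the members stayed between -1.17 and -0.97.

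With the mouse as a block, 40 members and 56 other mitotic genes were called lower, beside 6.45% of all genes, and the block changed no call among the members but that of *Ttk*, which also passed with no filter (edgeR adjusted p = 0.0401). Calls were lost for *Mad2l1* (0.0683) and *Incenp* (0.0513) with filterByExpr, for *Mad2l1* with robust = TRUE (0.0887), for *Kif2c* with DESeq2 (0.0612), and for *Nuf2*, *Bub1*, *Mad2l1*, *Kif2c* and *Ect2* when counts were thinned to the smallest library. Scaling by library totals alone moved the median of all genes from -0.0073 to -0.097 and gave 1008 genes called lower and 950 higher in place of 761 and 1140. The cause of these changes was not tested. At the depth of the smallest library 34 of the members were called lower, beside 3.84% of all genes.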
